A study of Homo sapiens with 48 samples.

Results

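The 10 genes described here act in the 53BP1 pathway and in DNA end joining. They were chosen by name for their function: TP53BP1, RIF1, MAD2L2, DCLRE1C, PRKDC, LIG4, XRCC4, POLQ, RNF8 and RNF168. They are 10 of the 20241 genes of the PSN1 expression table, and all 10 exceeded 1 CPM (a read count scaled to library size) in all 9 libraries. PSN1 is an established human pancreatic ductal adenocarcinoma (PDAC) line. RNAseq was done on wild type parental PSN1 cells without treatment (day 0), on TalaR-M cells and on TalaR-DF cells, with 3 replicates per group. TalaR cells are PSN1 cells that became resistant to Talazoparib, an inhibitor of the DNA repair enzymes PARP1 and PARP2, under selection with rising concentrations. TalaR-M cells were kept in the drug (50 nM, 4 months per the labels). TalaR-DF cells were the TalaR cells after culture without the drug, labelled as untreated and day 0. Per the paper they were kept drug-free for 4 weeks, and PSN1 cells were by then nearly as sensitive to Talazoparib as parental cells. Both TalaR groups are called resistant groups below for their origin only. Whether the resistant cells were a clone or a mixed population is not given in the sources used here. The other libraries of the series, which holds 48 samples, were not analysed here.

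At a break through both DNA strands the ligases RNF8 and RNF168 mark the surrounding chromatin with ubiquitin, and 53BP1 binds the marked nucleosomes. With RIF1 and the shieldin complex, which contains REV7 (the product of MAD2L2), 53BP1 limits the trimming of the broken ends and so favours end joining over homologous recombination. In classical end joining the kinase DNA-PKcs (PRKDC) and the nuclease Artemis (DCLRE1C) prepare the ends, and XRCC4 with DNA ligase IV (LIG4) seals them, while DNA polymerase theta (POLQ) joins ends in an alternative pathway. Loss of 53BP1 or shieldin is a known route to PARP inhibitor resistance in cells that lack BRCA1. PSN1 cells do not lack it: the paper describes them as proficient in BRCA1 and BRCA2. The comparison asks whether transcripts of these genes differed between parental cells, TalaR-M cells in the drug and TalaR-DF cells after withdrawal.

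The depth over genes above 1 CPM was 12213605 to 14973847 reads in 8 libraries and 8387755 reads in TalaR-M replicate 2. That library stood apart: over 10512 genes its Pearson r with the other TalaR-M libraries was 0.780, against 0.993 to 0.997 for the other pairs within a group, and its values were lower for genes with long transcripts and higher for genes with short ones. Values for TalaR-M cells are therefore given with and without it, and in TalaR-DF against parental cells it alters only the error and the p. Of 10 epithelial and pancreatic markers, 8 (all but CDH1 and PDX1) were above 0 in every library. Their summed level was 1236 to 1300 CPM in parental and 1049 to 1190 CPM in TalaR-DF libraries. In TalaR-M it was 5859 CPM in replicate 2, and 1974 and 1818 CPM in replicates 1 and 3. Of 8 fibroblast markers, 2 were at 0 in each library. Their summed level was 1795 to 1868 CPM in parental and 912 to 1028 CPM in TalaR-DF cells. In TalaR-M it was 1225 CPM in replicate 2, and 3408 and 3350 CPM in replicates 1 and 3. Single markers did not all follow the sum. Of the 7 tested, 2 were higher and 4 lower in TalaR-M than in parental cells (limma, all libraries), against 10.3% and 13.2% of all genes. Without replicate 2, 3 were higher and 4 lower, against 30.2% and 30.0%. In TalaR-DF cells 0 were higher and 4 lower, against 6.77% and 11.8% of all genes. Without TalaR-M replicate 2 these were 0 and 6, against 32.5% and 30.4%. COL1A2 had log2 fold changes of -7.86 and -4.10 in these comparisons, and COL1A1 of 1.97 (2.14 without replicate 2) and -2.68. COL1A2 was listed at 0 in every TalaR-M library, so its -7.86 sets the parental level against the lowest possible value. Of 8 blood and endothelial markers, 5 or 6 were at 0 in each library and the rest summed to between 4.10 and 29.8 CPM. The part of these levels in the results was not tested. In bulk RNA, fewer cells with a transcript and less transcript per cell cannot be told apart.

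In parental cells the 10 genes spanned a wide range of levels once reads were set against transcript length. PRKDC was the highest with 5.43 log2 CPM per kb, followed by MAD2L2 with 4.98. XRCC4 (3.73), RIF1 (3.71) and TP53BP1 (3.63) lay close together on the same scale, and the parental libraries of XRCC4 and RIF1, and those of RIF1 and TP53BP1, overlapped. RNF168 (2.56) and RNF8 (2.46) came next. LIG4 (0.87), DCLRE1C (0.64) and POLQ (0.54) were the lowest, and neighbours among these 3 overlapped. POLQ, the last of the 10 in parental cells, was the eighth in both resistant groups, at 1.85 log2 CPM per kb in TalaR-M cells (without replicate 2) and 1.80 in TalaR-DF cells, above LIG4 and DCLRE1C without overlap. The rest of the order was the same in all 3 groups, except that LIG4 and DCLRE1C moved down a place each.

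**Figure D1:**
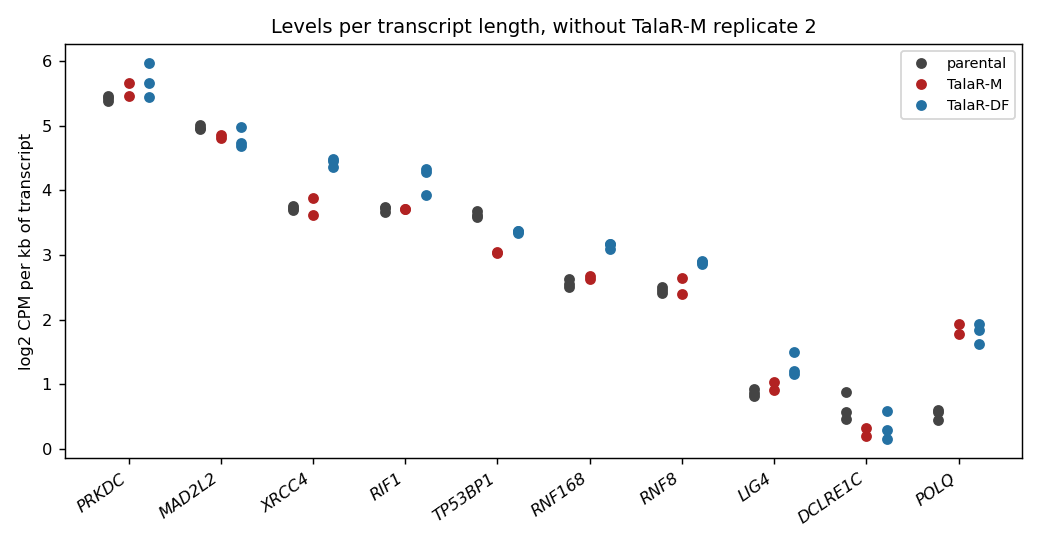
Level of each of the 10 genes in log2 CPM per kb of transcript (vertical axis), ordered by the parental mean along the horizontal axis, with a point per library (3 parental, 2 TalaR-M without replicate 2, and 3 TalaR-DF). POLQ is the lowest gene in parental cells and lies above LIG4 and DCLRE1C in both resistant groups.

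With all 9 libraries XRCC4 and RNF8 were higher in TalaR-DF than in parental cells, while POLQ, RNF168 and TP53BP1 did not pass against parental cells. Once TalaR-M replicate 2 was left out, POLQ was higher in both resistant groups, RNF168 was higher in TalaR-DF cells, and TP53BP1 was lower in both, the most in TalaR-M cells. The promoters of TP53BP1, POLQ and XRCC4 are shown because these 3 genes differed in pattern without that library. Each runs from 250 bases before to 50 after a RefSeq transcription start (GRCh38.p14), on the strand of the gene, with matches to the searched motifs in capitals: the CCAAT box (CCAAT), the GC box (GGGCGG), the E2F core (TTTCCCGC and TTTGGCGC), the CHR element (TTTGAA) and the ETS core (CCGGAAG), each on both strands. The TP53BP1 promoter is chr15:43510591-43510890 on the minus strand, that of POLQ is chr3:121545939-121546238 on the minus strand, and that of XRCC4 is chr5:83077297-83077596 on the plus strand.
TP53BP1: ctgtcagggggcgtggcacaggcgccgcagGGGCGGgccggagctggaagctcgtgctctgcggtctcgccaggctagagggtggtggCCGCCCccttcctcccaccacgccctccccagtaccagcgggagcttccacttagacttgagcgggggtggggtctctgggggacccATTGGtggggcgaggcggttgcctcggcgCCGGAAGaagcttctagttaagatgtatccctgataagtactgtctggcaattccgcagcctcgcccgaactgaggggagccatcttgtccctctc
POLQ: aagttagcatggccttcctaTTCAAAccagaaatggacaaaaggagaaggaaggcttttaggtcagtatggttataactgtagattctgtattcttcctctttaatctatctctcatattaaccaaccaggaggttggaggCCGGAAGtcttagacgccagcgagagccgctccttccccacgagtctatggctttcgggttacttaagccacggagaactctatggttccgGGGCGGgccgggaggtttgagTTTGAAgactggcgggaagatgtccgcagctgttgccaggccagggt
XRCC4: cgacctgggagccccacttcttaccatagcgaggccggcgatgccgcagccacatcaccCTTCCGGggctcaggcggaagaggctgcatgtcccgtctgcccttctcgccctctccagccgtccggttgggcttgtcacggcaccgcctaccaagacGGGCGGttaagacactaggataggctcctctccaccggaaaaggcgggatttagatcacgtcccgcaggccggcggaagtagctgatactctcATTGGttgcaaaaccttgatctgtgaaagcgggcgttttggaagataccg
Matches did not overlap each other in these sequences. The TP53BP1 promoter held 2 GC boxes, 1 CCAAT box and 1 ETS core, that of XRCC4 held 1 of each of these motifs, and that of POLQ held 2 CHR matches, 1 GC box and 1 ETS core. Over 35116 RefSeq promoters of the same length, 34.6% held a CCAAT box, 45.0% a GC box, 10.3% an ETS core, 15.2% a CHR match and 2.27% an E2F core. Of the 10 genes, 9 had a promoter in the RefSeq table (15 promoters, all but PRKDC). None of these held an exact match to the E2F core sequences searched, and other forms of an E2F site were not searched. CHR matches were found in the promoters of POLQ and RIF1. These matches describe the sequences and say nothing of which factors act there.

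Expression in TalaR-M cells was first compared with that in parental cells. With all 9 libraries, 0 of the 10 genes passed an adjusted p of 0.05 (limma, Benjamini-Hochberg over 12471 genes), against 23.6% of all genes tested (10.3% higher and 13.2% lower). At an unadjusted p under 0.05, 1 of the 10 passed, as did 4689 of the 12471 genes. With voom on the recovered reads 0 of the 10 passed. The shares of all genes with voom are not given here, so no count with voom is set against all genes. Without TalaR-M replicate 2, POLQ was higher and TP53BP1 lower, so 2 of 10 passed against 60.2% of all genes (30.2% higher and 30.0% lower). The median log2 fold change of the 10 genes was then 0.040, and that of all genes was 0.011. TalaR-M and parental libraries did not overlap for 2 of the 10 genes (49.8% of all genes), and for 6 without that library (75.0%).

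TalaR-DF cells were compared with the same parental libraries, so the values of both comparisons share their control. With all 9 libraries, 2 of the 10 genes passed, against 18.6% of all genes. XRCC4 and RNF8 were higher (6.77% of all genes) and 0 were lower (11.8%). At an unadjusted p under 0.05, 4 of 10 were higher, and 3669 of the 12471 genes passed in either direction. With voom 3 of the 10 were higher and 0 lower, without a share of all genes to set beside it. TalaR-M replicate 2 enters this comparison only through the shared estimate of the spread. When it was left out 7 of 10 passed, against 62.9% of all genes: XRCC4, POLQ, RNF168, RNF8, RIF1 and LIG4 were higher (32.5% of all genes) and TP53BP1 was lower (30.4%). A fit of the 6 parental and TalaR-DF libraries alone also gave 6 higher and 1 lower. The median log2 fold change was 0.42 for the 10 genes and 0.015 for all genes. The groups did not overlap for 7 of 10 genes, against 68.5% of all genes.

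Between the resistant groups, 2 of the 10 genes passed in the 9 libraries, against 12.0% of all genes: XRCC4 and RNF168 were lower in TalaR-M than in TalaR-DF cells (4.25% of all genes). None of the 10 was higher (0 genes by limma and 0 by voom), against 7.79% of all genes by limma. At an unadjusted p under 0.05, 0 were higher and 3 lower, and 3718 of the 12471 genes passed in either direction. When TalaR-M replicate 2 was left out 5 of 10 passed, against 48.8% of all genes: XRCC4, RNF168, TP53BP1, RNF8 and RIF1 were lower in TalaR-M cells (25.3% of all genes) and 0 were higher (23.5%). The groups did not overlap for 6 of 10 genes with or without that library (40.8% and 60.6% of all genes). The median log2 fold change was then -0.32 for the 10 genes and -0.016 for all genes. A fit of these groups alone without that library kept 4 of the 5 calls, with RIF1 at an adjusted p of 0.0633. With 2 TalaR-M libraries left, their spread was taken to be like that of the other groups.

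**Figure D2:**
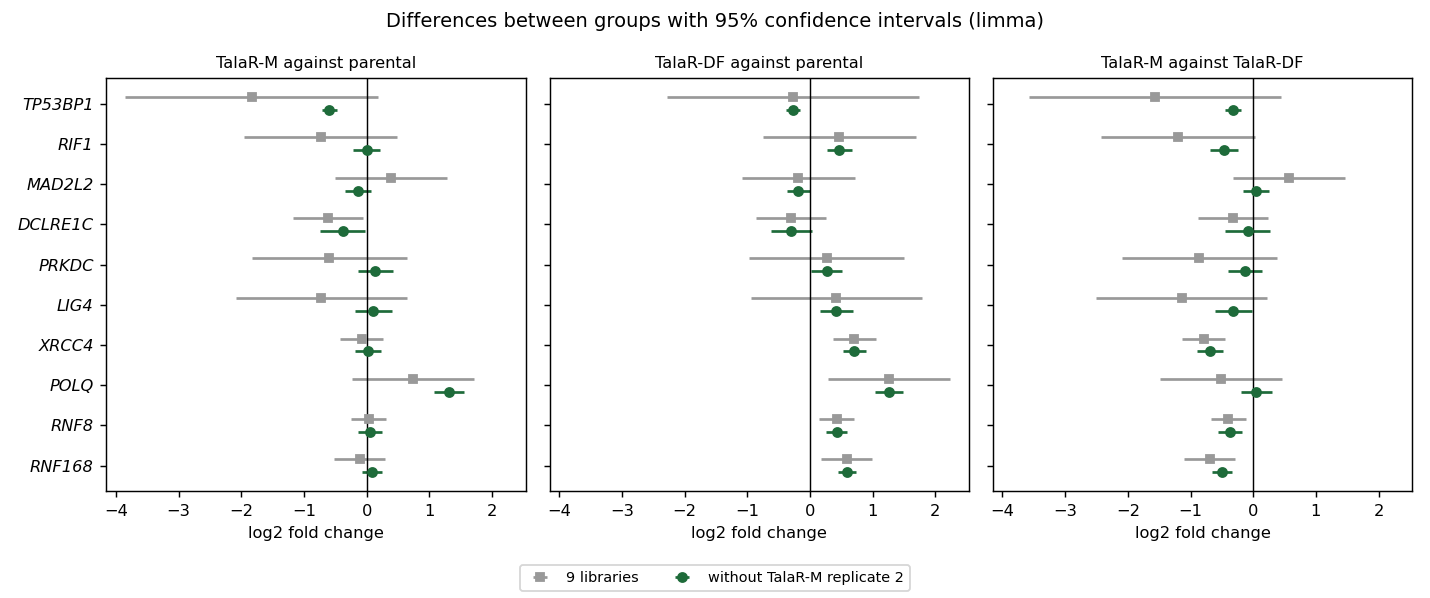
Log2 fold change (horizontal axis) of each of the 10 genes in the 3 comparisons, with limma's 95% confidence interval, from all 9 libraries (grey squares) and without TalaR-M replicate 2 (green circles). Intervals are widest with all 9 libraries, and without that library POLQ lies 1.31 and 1.26 above parental cells in TalaR-M and TalaR-DF cells.

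RNF8 (chromosome 6 from 37353979 to 37394734 of GRCh38, plus strand, 8 exons) starts the ubiquitin signal at breaks. Its expression was 4.90, 4.99 and 4.95 log2 CPM in parental replicates 1 to 3, 5.13, 4.93 and 4.88 in those of TalaR-M, and 5.38, 5.40 and 5.35 in those of TalaR-DF. The TalaR-DF libraries were all above the other 6, while TalaR-M and parental libraries overlapped, and TalaR-M replicate 2 did not stand out for this gene. RNF8 was higher in TalaR-DF than in parental cells by 0.43 on the log2 scale (SE 0.12, adjusted p = 0.0459 from limma), and without TalaR-M replicate 2 the SE was 0.077 and the adjusted p 0.000463. In the 9-library fit this call was lost without any parental or TalaR-DF library (adjusted p between 0.123 and 0.162) and without TalaR-M replicate 3 (0.053). It was also lost by scaling with the median ratio (0.0666) and by removing a trend on transcript length and GC (0.283). Against TalaR-DF, the TalaR-M cells were at -0.39 (adjusted p = 0.0772), and at -0.37 without replicate 2 (adjusted p = 0.00408). Against parental cells they differed by 0.032 (95% interval -0.25 to 0.32, adjusted p = 0.864), and by 0.058 without replicate 2 (adjusted p = 0.58).

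RNF168 (chromosome 3 from 196468783 to 196503768, minus strand, 6 exons) extends that signal on histone H2A and creates the mark that 53BP1 reads. Its levels were 4.93, 4.97 and 5.04 log2 CPM in parental libraries, 5.05, 4.48 and 5.09 in TalaR-M, and 5.52, 5.59 and 5.59 in TalaR-DF. Again the TalaR-DF libraries lay above all others, and TalaR-M replicate 2 was the lowest of the 9. Relative to parental cells RNF168 differed by 0.58 in TalaR-DF cells (SE 0.18, adjusted p = 0.0557 from limma), which passed without TalaR-M replicate 2 (SE 0.0655, adjusted p = 1.18e-05). TalaR-M cells were below TalaR-DF cells by a log2 fold change of -0.69 (SE 0.18, adjusted p = 0.041), or -0.50 without replicate 2 (adjusted p = 0.000193). In the 9-library fit this call was lost without any parental library (adjusted p between 0.0816 and 0.0842) and without any TalaR-DF library (between 0.115 and 0.138). It was also lost with the length and GC trend removed (0.11) and in a fit of the resistant groups alone (0.156), which keeps replicate 2. TalaR-M and parental cells differed by -0.11 with all libraries (adjusted p = 0.674) and by 0.088 without replicate 2 (95% interval -0.072 to 0.25, adjusted p = 0.32).

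TP53BP1 (chromosome 15 from 43403061 to 43510728, minus strand, 28 exons) encodes 53BP1, the protein that channels breaks to end joining. Its expression was 6.997, 6.958 and 7.061 log2 CPM in parental replicates, 6.414, 2.688 and 6.407 in TalaR-M replicates, and 6.739, 6.743 and 6.719 in TalaR-DF replicates. The 3 groups did not overlap, with parental libraries the highest and TalaR-M libraries the lowest. TalaR-M replicate 2 was 3.72 below the mean of the other TalaR-M libraries on the log2 scale, which rests on 48 reads against 1339 and 1191. Genes were placed in 10 classes of equal size by transcript length. Among the 1046 genes in the class with the longest transcripts, the median deviation of that library was -1.45, and 0.96% of them lay further down than TP53BP1. With all libraries the log2 fold change between TalaR-M and parental cells was -1.84 (SE 0.87, adjusted p = 0.163 from limma). Without replicate 2 TP53BP1 was lower in TalaR-M cells, with a log2 fold change of -0.59 (SE 0.057, 95% interval -0.72 to -0.47, adjusted p = 3.28e-06), a ratio of 0.662. The ratio of TalaR-DF to parental cells was 0.828 (log2 fold change -0.27, adjusted p = 0.9 with all libraries and 0.000594 without TalaR-M replicate 2). TalaR-M cells lay below TalaR-DF cells by -0.32 on the log2 scale without replicate 2 (adjusted p = 0.000646), and the value was -1.56 with it (adjusted p = 0.252).

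RIF1 (chromosome 2 from 151409883 to 151508013, plus strand, 36 exons) is recruited by phosphorylated 53BP1. It had 7.61, 7.62 and 7.53 log2 CPM in parental libraries, 7.58, 5.38 and 7.59 in TalaR-M libraries, and 7.80, 8.15 and 8.21 in TalaR-DF libraries. TalaR-M replicates 1 and 3 lay within the parental range and replicate 2 was 2.20 below them, while all TalaR-DF libraries were above the rest. RIF1 differed by 0.47 between TalaR-DF and parental cells (adjusted p = 0.66 from limma with all libraries, and 0.000755 without TalaR-M replicate 2). TalaR-M and parental cells had a log2 fold change of 0.0003 without replicate 2 (95% interval -0.22 to 0.22, adjusted p = 1), and of -0.73 with it (adjusted p = 0.333).

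MAD2L2 (chromosome 1 from 11658918 to 11691811, minus strand, 9 exons) encodes REV7, a subunit of shieldin and of DNA polymerase zeta. Its levels were 5.09, 5.04 and 5.02 log2 CPM in parental, 4.93, 6.49 and 4.88 in TalaR-M, and 5.05, 4.80 and 4.76 in TalaR-DF libraries. It was the one gene of the 10 whose value in TalaR-M replicate 2 was above the other TalaR-M libraries, by 1.58. With 1053 bases it also had the shortest transcript of the 10, and the median deviation in the class with the shortest transcripts was 1.43. Between TalaR-M and parental cells the log2 fold change was 0.38 (adjusted p = 0.484 from limma) and, without replicate 2, -0.14 (95% interval -0.35 to 0.067, adjusted p = 0.218). TalaR-DF cells were at -0.18 relative to parental cells (adjusted p = 0.84, and 0.081 without TalaR-M replicate 2), and their libraries overlapped the parental ones.

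**Figure D3:**
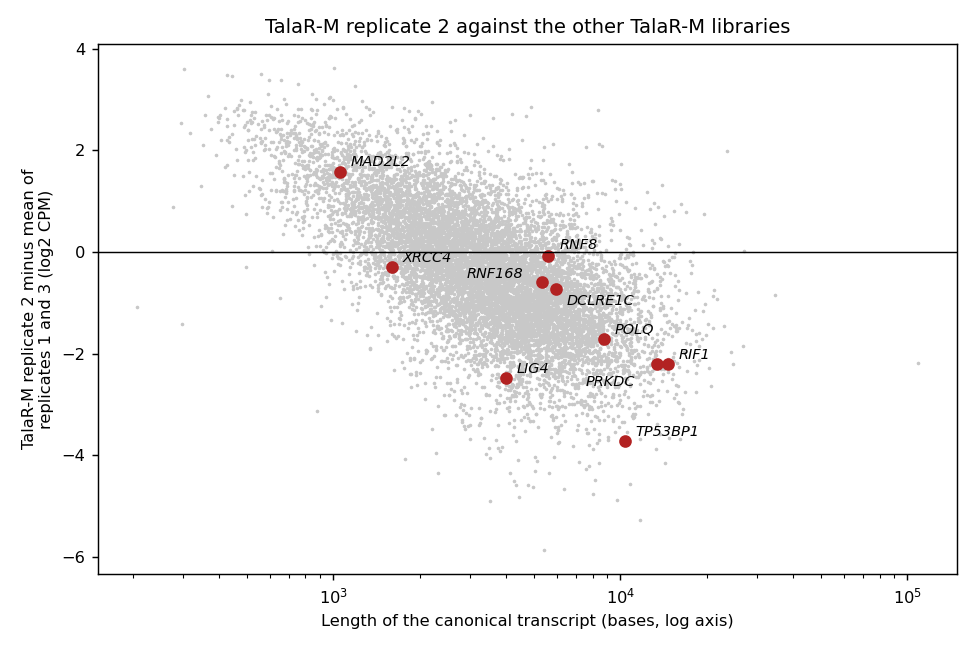
Log2 CPM in TalaR-M replicate 2 minus the average of the other TalaR-M libraries (vertical axis) against transcript length in bases (horizontal log axis), for genes with a mean above 2 log2 CPM (grey) and for the 10 genes (red). TP53BP1 is the lowest of the 10 at -3.72 and MAD2L2 the only one above 0, at 1.58.

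PRKDC (chromosome 8 from 47773111 to 47960178, minus strand, 86 exons), the catalytic subunit of DNA-PK, had 9.21, 9.18 and 9.13 log2 CPM in parental, 9.22, 7.11 and 9.42 in TalaR-M, and 9.19, 9.72 and 9.42 in TalaR-DF libraries. TalaR-M replicate 2 was the lowest of the 9, at 1043 reads against 7394 or more in the others, and the TalaR-DF libraries overlapped the parental ones. PRKDC did not pass the test in any comparison, with a log2 fold change of -0.59 between TalaR-M and parental cells (adjusted p = 0.434 from limma), 0.14 without replicate 2 (adjusted p = 0.353), and of 0.27 between TalaR-DF and parental cells (adjusted p = 0.827, and 0.0547 without TalaR-M replicate 2). DCLRE1C (chromosome 10 from 14897359 to 14954432, minus strand, 14 exons), the nuclease activated by DNA-PK, had 3.04, 3.14 and 3.46 log2 CPM in parental, 2.77, 2.11 and 2.90 in TalaR-M, and 2.72, 3.16 and 2.88 in TalaR-DF libraries. TalaR-M libraries lay below the parental ones, and the TalaR-DF libraries overlapped both. The log2 fold change of DCLRE1C in TalaR-M cells was -0.62 (SE 0.24, adjusted p = 0.103, with an unadjusted p of 0.0336), and -0.38 without replicate 2 (adjusted p = 0.0643). The gene was covered by 32 to 144 reads per library.

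XRCC4 (chromosome 5 from 83077498 to 83353787, plus strand, 8 exons), the partner that stabilizes DNA ligase IV, had 4.37, 4.41 and 4.44 log2 CPM in parental, 4.56, 4.13 and 4.30 in TalaR-M, and 5.04, 5.17 and 5.14 in TalaR-DF libraries. The TalaR-DF libraries stood above the 6 others, and TalaR-M libraries lay on both sides of the parental ones. XRCC4 was the gene of the 10 with the lowest adjusted p in TalaR-DF against parental cells with all libraries, with a log2 fold change of 0.71 (SE 0.15, 95% interval 0.37 to 1.05, adjusted p = 0.0114 from limma), a ratio of 1.64. Without TalaR-M replicate 2 its adjusted p was 2.25e-05. In the 9-library fit the call was lost without parental replicate 1 (adjusted p = 0.0552), parental replicate 2 (0.0514), TalaR-DF replicate 2 (0.0539) or TalaR-DF replicate 3 (0.0506). TalaR-M cells were below TalaR-DF cells, with a log2 fold change of -0.79 (adjusted p = 0.0112), or -0.69 without replicate 2 (adjusted p = 0.00013), and the 9-library call was lost without TalaR-DF replicate 2 (0.0572) or 3 (0.0546) and in a fit of the resistant groups alone (0.0755). Between TalaR-M and parental cells the value was -0.080 with all libraries (adjusted p = 0.705) and 0.021 without replicate 2 (95% interval -0.19 to 0.23, adjusted p = 0.868).

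LIG4 (chromosome 13 from 108207439 to 108218368, minus strand, 3 exons), the ligase of classical end joining, was expressed at 2.85, 2.92 and 2.82 log2 CPM in parental, 2.90, 0.49 and 3.03 in TalaR-M, and 3.16, 3.49 and 3.19 in TalaR-DF libraries. Its value in TalaR-M replicate 2 rested on 10 reads, against 92 to 154 in the other 8 libraries. TalaR-DF libraries were all above the rest, and TalaR-M replicates 1 and 3 overlapped the parental range. LIG4 differed by 0.42 between TalaR-DF and parental cells (adjusted p = 0.736 from limma with all libraries, and 0.00887 without TalaR-M replicate 2). Between TalaR-M and TalaR-DF cells the log2 fold change was -0.32 without replicate 2 (adjusted p = 0.0689) and -1.14 with it (adjusted p = 0.228).

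POLQ (chromosome 3 from 121431431 to 121545988, minus strand, 30 exons), the polymerase of alternative end joining, had 3.70, 3.73 and 3.57 log2 CPM in parental libraries, 4.90, 3.27 and 5.06 in TalaR-M libraries, and 4.76, 4.97 and 5.06 in TalaR-DF libraries. These values stand for 156 to 190 reads in parental libraries, 72 in TalaR-M replicate 2, and 392 to 469 in the other 5 libraries. All TalaR-DF libraries and TalaR-M replicates 1 and 3 were above the parental ones, and TalaR-M replicate 2 was below them. With all libraries POLQ did not pass the test, with a log2 fold change of 0.74 in TalaR-M cells (SE 0.42, adjusted p = 0.232 from limma) and of 1.26 in TalaR-DF cells (SE 0.42, adjusted p = 0.0789). Leaving out TalaR-M replicate 2, POLQ was 2.48-fold higher in TalaR-M cells (log2 fold change 1.31, SE 0.11, 95% interval 1.07 to 1.55, adjusted p = 1.18e-06) and 2.40-fold higher in TalaR-DF cells (1.26, SE 0.099, 95% interval 1.04 to 1.48, adjusted p = 6.23e-07). It was the only gene of the 10 that passed together with a change of at least 2-fold, which 6.78% of all genes did upward in TalaR-M and 2.73% in TalaR-DF cells. TalaR-M and TalaR-DF cells differed by -0.52 with all libraries (adjusted p = 0.399) and by 0.050 without replicate 2 (95% interval -0.19 to 0.29, adjusted p = 0.746).

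**Figure D4:**
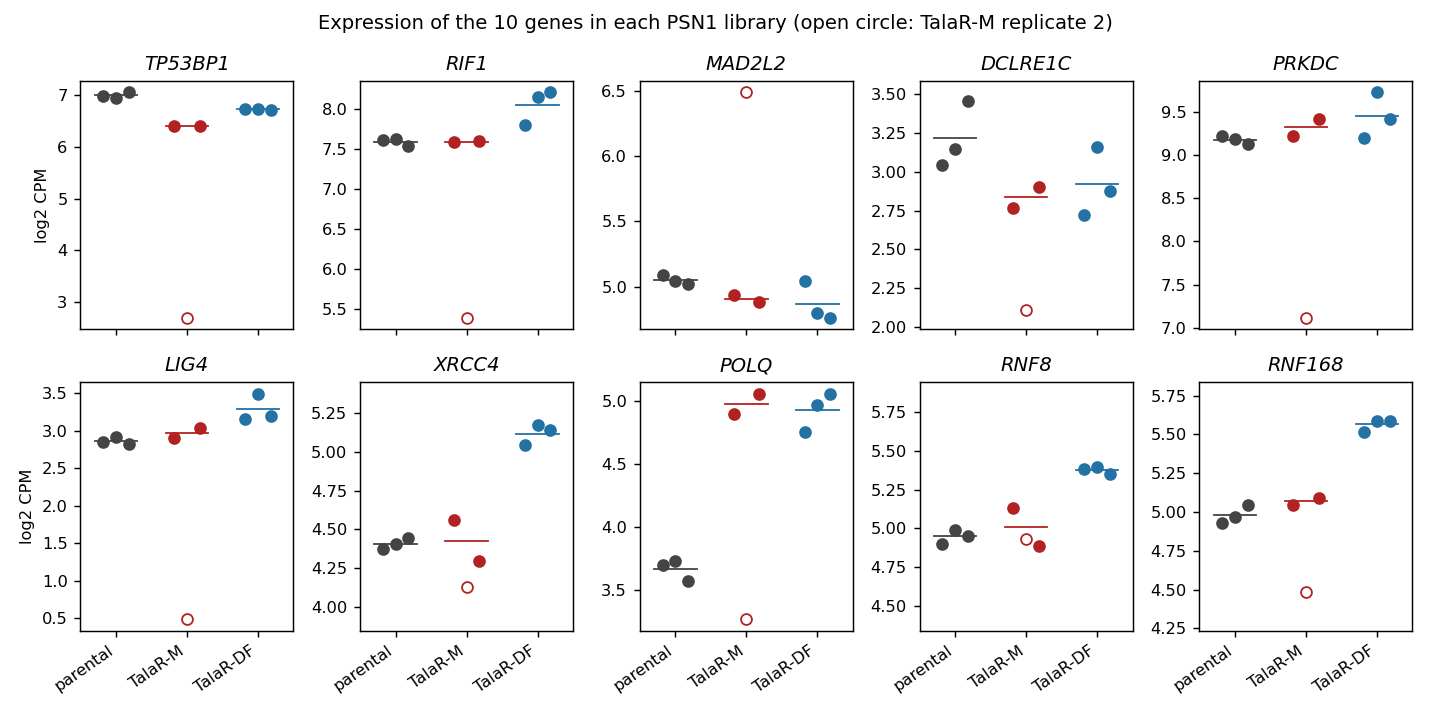
Expression in log2 CPM (vertical axes, each with its own range) of the 10 genes in the 3 parental, 3 TalaR-M and 3 TalaR-DF libraries (points), with TalaR-M replicate 2 as an open circle and a bar at the group mean without it. XRCC4, RNF8 and RNF168 are highest in the TalaR-DF libraries, and POLQ is above parental in both resistant groups except in the open circle.

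Genes of cell proliferation, taken as a sum, were also higher in the libraries with more POLQ. The summed level of 12 proliferation markers was 2052 to 2123 CPM in parental libraries, 3623 and 3269 CPM in TalaR-M replicates 1 and 3, 2060 CPM in TalaR-M replicate 2, and 3296 to 3396 CPM in TalaR-DF libraries, and its part in the values of POLQ was not tested. In TalaR-M replicate 2 single markers did not all follow the sum. CCNB1 (8.63 log2 CPM), PCNA (8.46), CDK1 (6.68) and RRM2 (7.36) were above every parental library there, although POLQ was below them all. The other markers lay within or below the parental range, with TOP2A at 7.16. Of the 12 markers, 4 were higher in TalaR-M and 6 in TalaR-DF cells with all libraries, and 10 and 12 without TalaR-M replicate 2 (limma), with 0 lower in each case. Of all genes 10.3% and 6.77% were higher with all libraries, and 30.2% and 32.5% without that one. The median log2 fold change without that library was 0.76 and 0.65, against 0.011 and 0.015 for all genes. With all libraries the largest of these were CCNB1 (0.86, adjusted p = 0.00114, and 0.82 without replicate 2) and RRM2 (0.83, adjusted p = 0.0171, and 1.06 without it) in TalaR-M cells, and MKI67 (1.10, adjusted p = 0.0405) and CDK1 (0.98, adjusted p = 0.00229) in TalaR-DF cells. MCM2 and PLK1 were lower in TalaR-M than in TalaR-DF cells (log2 fold change -0.81 and -0.66, adjusted p = 0.0378 and 0.0126, or -0.57 and -0.61 without replicate 2), as the 2 markers that passed with all libraries. Without replicate 2 these were joined by 3 that were higher in TalaR-M cells, RRM2 (0.44, adjusted p = 0.000501), BUB1 (0.26, adjusted p = 0.00442) and TOP2A (0.24, adjusted p = 0.0142), named here after their values were seen, and the median over the 12 markers was 0.054.

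Across the 8 libraries other than TalaR-M replicate 2, pairs of the 10 genes varied in the same or in opposite directions. XRCC4 varied with RNF8 (Pearson r = 0.98) and RNF168 (0.97), and RIF1 with XRCC4 (0.91) and RNF168 (0.90). TP53BP1 and POLQ went opposite ways (-0.85). MAD2L2 ran opposite to PRKDC (-0.80) and POLQ (-0.77). These coefficients describe 8 libraries of 3 groups, and they carry the differences between groups given above.

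The effectors and partners of 53BP1, 17 genes of shieldin, the CST complex, DNA polymerase alpha and their regulators, included genes higher and genes lower than in parental cells. SHLD3 was not found among the genes of the PSN1 expression table, TEN1 was listed at 0 in every library, and 15 genes were tested. In TalaR-M cells 1 was higher and 3 were lower with all libraries, and 6 higher and 4 lower without TalaR-M replicate 2 (median log2 fold change 0.15), while 23.6% and 60.2% of all genes passed in these fits. In TalaR-DF cells 3 were higher and 1 lower, and 9 and 4 without that library (median 0.36), against 18.6% and 62.9% of all genes. TalaR-M against TalaR-DF gave 0 higher and 2 lower, and 1 and 5 without it (median -0.21), against 12.0% and 48.8% of all genes. Over all genes the medians were 0.011, 0.015 and -0.016.

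SHLD1 and SHLD2, subunits of shieldin, went opposite ways. SHLD1 was at 3.87, 3.84 and 3.78 log2 CPM in parental, 2.30, 3.36 and 1.89 in TalaR-M, and 2.12, 1.77 and 2.51 in TalaR-DF libraries, so that all libraries of both resistant groups were below the parental ones. Its log2 fold change was -1.31 in TalaR-M cells (adjusted p = 0.033 from limma, and -1.74 without replicate 2) and -1.70 in TalaR-DF cells (adjusted p = 0.013). SHLD2 was at 5.36, 5.35 and 5.33 log2 CPM in parental, 5.87, 5.41 and 5.78 in TalaR-M, and 6.12, 6.38 and 6.46 in TalaR-DF libraries. The 3 groups of SHLD2 did not overlap. It was higher in TalaR-DF than in parental cells by 0.97 (adjusted p = 0.00389) and lower in TalaR-M than in TalaR-DF cells by a log2 fold change of -0.63 (adjusted p = 0.0404, and -0.49 without replicate 2). Between TalaR-M and parental cells SHLD2 differed by 0.34 (adjusted p = 0.157), and by 0.48 without replicate 2 (adjusted p = 0.000845).

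HELB, a helicase known to restrain end resection, was at 4.54, 4.52 and 4.57 log2 CPM in parental, 2.87, 1.30 and 2.55 in TalaR-M, and 3.51, 3.76 and 3.75 in TalaR-DF libraries. The groups did not overlap, with TalaR-M the lowest. HELB was lower in TalaR-M than in parental cells by a log2 fold change of -2.30 (SE 0.36, adjusted p = 0.0025 from limma), or -1.83 without replicate 2 (adjusted p = 2.12e-07), and lower than in TalaR-DF cells by -1.43 (adjusted p = 0.0382), or -0.96 without replicate 2. POLA2, a subunit of DNA polymerase alpha-primase, was at 4.73, 4.68 and 4.73 log2 CPM in parental, 6.10, 6.91 and 6.03 in TalaR-M, and 5.84, 5.65 and 5.72 in TalaR-DF libraries. All resistant libraries were above the parental ones. Its log2 fold change was 1.63 in TalaR-M (adjusted p = 0.00134, and 1.35 without replicate 2) and 1.02 in TalaR-DF cells (adjusted p = 0.0158).

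Of 21 further genes of break signalling to chromatin, 1 rose and 4 fell in TalaR-M cells in the 9-library fit, compared with parental cells, and 1 rose and 10 fell without TalaR-M replicate 2 (median log2 fold change -0.16, against 0.011 for all genes). Of all genes 23.6% and 60.2% passed in these fits. By direction, 10.3% of all genes were higher and 13.2% lower with all libraries, and 30.2% and 30.0% without that one. H2AX, the histone phosphorylated at breaks, was higher by 1.33 (adjusted p = 0.00825 from limma) and by 1.01 without replicate 2. The deubiquitinase USP3 was lower by a log2 fold change of -1.44 (adjusted p = 0.0138), and -1.02 without it, and the SUMO ligase PIAS1 by -1.07 (adjusted p = 0.0455), and -0.65 without it. In TalaR-DF against parental cells 0 of the 21 passed with all libraries (2 at an unadjusted p under 0.05 in limma, and 1 with voom), and 4 were higher and 7 lower without TalaR-M replicate 2 (median -0.034), against 18.6% and 62.9% of all genes. In TalaR-M against TalaR-DF cells UIMC1, which encodes the ubiquitin-binding protein RAP80, was lower by a log2 fold change of -0.73 (adjusted p = 0.0206, and -0.57 without replicate 2), as the 1 gene that passed with all libraries, and 2 were higher and 8 lower without replicate 2 (median -0.12), against 12.0% and 48.8% of all genes.

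Among 13 other classical end-joining factors, NHEJ1 and DNTT were listed at 0 in every library and 11 were tested. With all libraries 2 were higher and 1 lower in TalaR-M cells, 1 was higher in TalaR-DF cells, and 1 was lower in TalaR-M than in TalaR-DF cells. These counts without TalaR-M replicate 2 were 5 higher and 2 lower, 4 and 0, and 1 and 1, with medians of 0.16, 0.013 and -0.053. The shares of all genes that passed were 23.6%, 18.6% and 12.0% with all libraries and 60.2%, 62.9% and 48.8% without that one. APTX, which removes adenylate from stalled ligation ends, was higher in both resistant groups (0.71 in TalaR-M, adjusted p = 0.0239, or 0.52 without replicate 2, and 0.65 in TalaR-DF, adjusted p = 0.0405, from limma). TDP2, a phosphodiesterase that frees ends from topoisomerase II, was lower in TalaR-M cells than in parental (-0.49, adjusted p = 0.0279) and TalaR-DF cells (-0.50, adjusted p = 0.0414), or by -0.41 and -0.42 without replicate 2. APLF was listed at 0 in all parental and all TalaR-DF libraries. It had 1.12, 0.18 and 1.44 log2 CPM in the TalaR-M libraries.

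Of 9 other alternative end-joining factors, 3 were higher in TalaR-M and 1 in TalaR-DF cells with all libraries, with 0 lower, and 0 passed between TalaR-M and TalaR-DF cells (3 at an unadjusted p under 0.05 in limma, and 0 with voom). Leaving out TalaR-M replicate 2, the counts were 4 higher and 2 lower, 4 and 1, and 2 and 2, with medians of 0.24, 0.16 and -0.076. These counts are near the shares of all genes that passed in these fits, 60.2%, 62.9% and 48.8% (23.6%, 18.6% and 12.0% with all libraries). FEN1, the flap endonuclease, was higher by 1.19 in TalaR-M (adjusted p = 0.005 from limma, and 0.92 without replicate 2) and by 0.90 in TalaR-DF cells (adjusted p = 0.0208). RAD1, a subunit of the 9-1-1 clamp, was higher by 0.67 in TalaR-M cells (adjusted p = 0.00667), and by 0.70 without replicate 2.

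End resection opposes classical end joining, and its 10 genes had log2 fold changes between 0.31 (NBN) and 1.09 (DNA2) in TalaR-DF against parental cells. BLM, a helicase of long-range resection, was the 1 gene that passed with all libraries, with a log2 fold change of 0.70 against parental cells (adjusted p = 0.0308 from limma) and of -0.81 in TalaR-M against TalaR-DF cells (adjusted p = 0.0247, and -0.62 without replicate 2), where 18.6% and 12.0% of all genes passed. Without TalaR-M replicate 2, all 10 rose in TalaR-DF relative to parental cells (median log2 fold change 0.54, against 0.015 for all genes), as 32.5% of all genes did. In TalaR-M cells 0 passed with all libraries (0 at an unadjusted p under 0.05 in limma, and 0 with voom), and 5 were higher and 0 lower without replicate 2 (median 0.21), against 23.6% and 60.2% of all genes. Against TalaR-DF cells, 5 of the 10 were lower in TalaR-M cells without it (median -0.21), as 25.3% of all genes were.

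**Figure D5:**
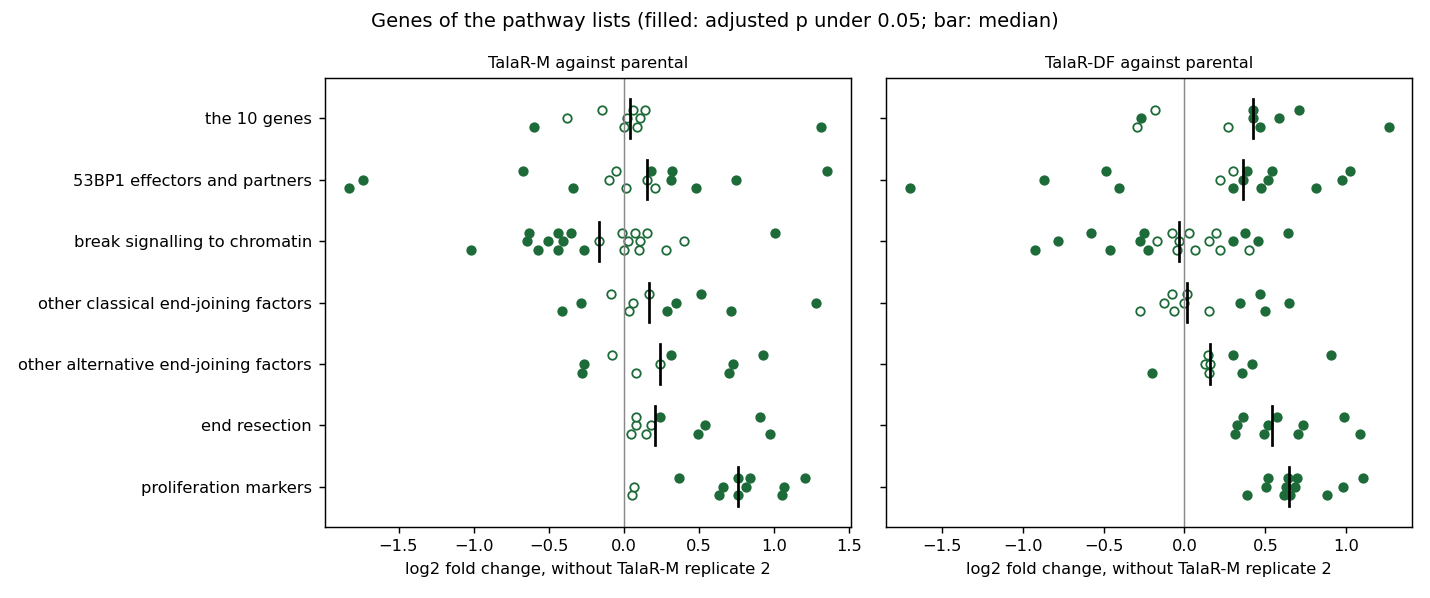
Log2 fold change (horizontal axis) in TalaR-M and TalaR-DF against parental cells without TalaR-M replicate 2, for the 10 genes, 5 pathway lists and the proliferation markers (rows), with a point per gene, filled where the adjusted p was under 0.05, and a bar at the list's median. All end resection genes and proliferation markers lie above 0 in TalaR-DF cells, with medians of 0.54 and 0.65.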

How the data were processed

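The 9 PSN1 libraries were stranded, poly(A)-selected and read from both ends over 150 bases. The deposited table holds log2 CPM per gene and library, to which the authors added a prior count of 1 in proportion to library size, with negative values raised to 0. This was read from the values, of which all under 50 CPM gave whole reads within 0.1 read. The genome build in the submitters' processing notes is hg38, and the aligner, counter and annotation are not given in the sources used here. The log2 values were fitted with limma 3.58.1 (R 4.3.3) as 3 group means over all 9 libraries, with a mean-variance trend, for 12471 genes above 1 CPM in at least 3 libraries, without a pseudocount. An adjusted p is limma's, by Benjamini-Hochberg over all of these genes, and genes passed under 0.05. An exact two-sided permutation test of 3 against 3 libraries cannot go below p = 0.1, so none was used. The labels say triplicate without naming separate cultures, so p-values measure the spread between these samples, which may be technical.

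The 10 genes and the lists were chosen with earlier results of these data known. Besides the 10 genes, the text names genes from each pathway list and the proliferation markers in each comparison. These are the 2 per direction with the largest change among those that passed with all 9 libraries. Genes listed at 0 or absent are also named, and APLF, listed at 0 in 2 groups. Named outside this rule are NBN and DNA2, as the ends of a range, COL1A1 and COL1A2, and some values of proliferation markers. Positions and canonical transcript lengths are from GENCODE 44 (GRCh38), matched by symbol for 93.2% of genes, and promoters from RefSeq (GRCh38.p14). Alternatives were other thresholds, pseudocounts, filters, scaling by the median ratio, no trend, a replicate block, fits of 2 groups, library weights, removal of a trend on length and GC, and leaving out each library. Voom on the recovered reads, and leaving out TalaR-M replicate 2 in fits of 2 groups, were added after seeing the data. The fit was tested on simulated data. Plots were made in Python 3.11.15 with matplotlib 3.10.9.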

Additional observations from a re-analysis of the deposited data

How the results depend on the processing

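Counts are given for TalaR-M cells and then TalaR-DF cells, each against parental cells, and last for the resistant groups against each other. With all 9 libraries 0, 2 and 2 of the 10 genes passed. Asking also for a 2-fold change left 0 in each, and an unadjusted p gave 1, 4 and 3. Library weights, which gave TalaR-M replicate 2 a weight of 0.013 against 0.86 to 3.40 for the others, gave 2, 8 and 5. Fits of only the 2 groups compared gave 0, 7 and 0, and the same without TalaR-M replicate 2 gave 2, 7 and 4. Removing the trend on transcript length and GC gave 1, 3 and 2. Leaving out each library gave 0 to 2, 0 to 7 and 0 to 5, with the highest counts without TalaR-M replicate 2. Other pseudocounts, filters, scaling, no trend and voom left each count within 1.5 times of the value given.

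Deviations of same-numbered parental and TalaR-DF libraries from their group means correlated at -0.095 to 0.13, without a clear pairing. With TalaR-M libraries they correlated at -0.31 to 0.16. These values cannot decide on pairing, since replicate 2 entered the TalaR-M mean. A fit with the replicate block gave 0, 1 and 1 of the 10 genes, with XRCC4 passing in both comparisons with TalaR-DF cells. Of the other genes named, the block ended the calls of SHLD1 (adjusted p = 0.07), PIAS1 (0.0569), TDP2 (0.064) and APLF (0.063) in TalaR-M against parental cells. In TalaR-DF against parental cells it ended those of APTX (0.0753), BLM (0.0665) and MKI67 (0.0762). Between the resistant groups it ended those of SHLD2 (0.0927), HELB (0.0699), TDP2 (0.0946), BLM (0.0604) and MCM2 (0.0583). Genes outside the 10 were refitted singly only with the block and without TalaR-M replicate 2.

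Over all genes 2938, 2315 and 1502 passed. A 2-fold change as well left 1653, 1214 and 864, and an unadjusted p gave 4689, 3669 and 3718. The block left 999 in TalaR-M against TalaR-DF cells, and fits of 2 groups gave 1724, 7755 and 591, or 7739, 7755 and 4266 without TalaR-M replicate 2. Library weights gave 7430, 8150 and 5439, and removing the trend gave 5078, 4106 and 3391. Leaving out each library gave 1801 to 7506, 1406 to 7850 and 724 to 6084.

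None of the calls made for the 10 genes with all 9 libraries changed direction. Log2 fold changes that turned, none of which passed, were XRCC4 (0.032) and RNF168 (0.0041) by the median ratio, MAD2L2 (-0.14), PRKDC (0.16), LIG4 (0.11) and RNF168 (0.086) by library weights, and MAD2L2 (-0.13) and RNF168 (0.23) with the trend removed, all in TalaR-M against parental cells. In TalaR-M against TalaR-DF cells they were POLQ (0.057) by library weights, and MAD2L2 (-0.024), DCLRE1C (0.14) and RNF8 (0.0105) with the trend removed. Leaving out each library turned 7 values in TalaR-M against parental cells, with ranges of -1.10 to 0.0003 for RIF1, -0.14 to 0.66 for MAD2L2, -1.01 to 0.14 for PRKDC, -1.17 to 0.10 for LIG4, -0.20 to 0.0208 for XRCC4, -0.0422 to 0.0803 for RNF8 and -0.22 to 0.0882 for RNF168, and 1 in TalaR-M against TalaR-DF cells, -0.85 to 0.0503 for POLQ. The turned value was that without TalaR-M replicate 2, which fits of 2 groups also gave, except for RNF8, which turned without TalaR-M replicate 1. The cause of these changes was not tested.

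Of 230 values in TalaR-DF against parental cells 185 kept their side of the threshold, 29 passed newly and 16 no longer passed. In TalaR-M replicate 2 the depth was the lowest, and LIG4 and TP53BP1 rested there on 10 and 48 reads.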
